A study of Mus musculus with 6 samples.

Results

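The genes described here are 40 mouse genes of the endoplasmic reticulum (ER) and the early secretory pathway, out of 22910 genes that the arrays named through a RefSeq accession. They were chosen by name, with earlier results of these data known. They comprised 15 chaperones and folding enzymes of the ER, 4 genes of ER-associated degradation, and 5 stress sensors and their effectors. A further 5 genes belonged to translocation and signal peptide processing, and 7 to COPII export and retrieval to the ER. The rest were 2 genes of collagen folding and 2 transcription factors of secretory capacity. All 40 genes were measured in 2D-MAOs. These are airway epithelial organoids from the lungs of C57BL/6 mice, dissociated and grown as a flat layer on type I collagen. The 3 control cultures and the 3 TGF-β1-treated cultures received from day 3 the same medium without noggin, a BMP antagonist, and without A83-01, an inhibitor of TGF-β receptors, so that the controls also lacked the receptor inhibitor, and TGF-β1 was added to the treated cultures on day 3. All 6 cultures were collected on day 7, and total RNA of each was hybridised to 1 single-colour Agilent array. The age of the mice and the TGF-β1 concentration of the array cultures are not given in the sources used here. The study calls the cultures biological replicates, without saying whether they came from separate animals, so the p-values measure the spread between these cultures.

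All 6 arrays shared 1 slide and 1 scan. Replicates 1 and 2 of both groups lay in slide row 1, and replicate 3 of both groups lay in slide row 2. Between 55.0% and 59.0% of probes on an array were well above background, and no spot was saturated. Of 7 epithelial markers, all were well above background on all 6 arrays, and their summed signal was 279818 to 305531 in controls and 259640 to 358003 with TGF-β1. Of 8 fibroblast markers, 3 were well above background on all 6 arrays, and Col3a1, Pdgfrb and Lum were not on any. Of 6 leukocyte markers, Cd68, Cd3e and Itgam were well above background on all 6 arrays and Ptprc and Adgre1 on none, and the summed signal of the 6 was 5596 to 6512 in controls and 8060 to 10170 with TGF-β1. The 3 TGF-β1 arrays lay above all controls for Cd68 and Itgam, as for 12.9% of all genes tested. For Cd3e the groups overlapped, with a log2 change of -0.24. Of 5 endothelial markers, Pecam1 cleared the background on every array, and Cdh5, Kdr and Tek did so on none. None of 4 plasma cell markers was well above background on all 6 arrays.

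Secreted and membrane proteins enter the ER through the Sec61 channel, are folded there by chaperones and by protein disulphide isomerases, and leave in COPII vesicles, while KDEL receptors return escaped chaperones from the Golgi. When unfolded protein builds up, the sensors IRE1 (Ern1), PERK and ATF6 start the unfolded protein response, in which the transcription factors XBP1 and ATF6 induce chaperones and degradation genes and the PERK branch induces Ddit3 (CHOP). Collagens need folding factors of their own, among them the collagen chaperone HSP47 (Serpinh1) and the prolyl isomerase FKBP65 (Fkbp10). Airway secretory cells carry a large load of secreted protein, and TGF-β is known to induce extracellular matrix genes.

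Many of the chaperone genes carry the ER stress response element (ERSE; CCAAT, 9 bases of any kind, then CCACG), the sequence through which ATF6 and XBP1 act together with NF-Y. Promoter windows from 250 bases before to 50 bases after the RefSeq start (assembly GRCm38.p6) were searched for it on both strands. Such a window was at hand for 33 of the 40 genes. The element was found in the windows of 8 of them, against 0.119% of all 32851 windows (39 windows). Of these 8 genes, 7 were chaperones or folding enzymes, and the eighth was the ERAD ubiquitin ligase gene Syvn1. The window of Hspa5, the gene of the main ER chaperone BiP, is shown whole because Hspa5 is the gene by which ER stress is usually read. The stretches of the other genes show how the element varied. All are written 5′ to 3′ along the gene's strand, with the fixed letters of the element in capitals. In Calr, Creld2 and one of the copies in Hsp90b1 the element ran along the opposite strand, so that CGTGG came before ATTGG.
Hspa5, chr2:34771840-34772139, plus strand: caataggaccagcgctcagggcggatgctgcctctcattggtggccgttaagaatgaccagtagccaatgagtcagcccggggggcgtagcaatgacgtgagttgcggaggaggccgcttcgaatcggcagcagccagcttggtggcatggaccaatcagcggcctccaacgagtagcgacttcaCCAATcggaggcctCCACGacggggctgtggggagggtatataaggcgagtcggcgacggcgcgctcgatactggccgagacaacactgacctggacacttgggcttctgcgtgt
Pdia6, chr12:17266479-17266521, plus strand: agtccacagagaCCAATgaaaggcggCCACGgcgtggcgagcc
Hsp90b1, chr10:86705626-86705668, minus strand: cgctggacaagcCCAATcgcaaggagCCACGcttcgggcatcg
Hsp90b1, chr10:86705521-86705563, minus strand: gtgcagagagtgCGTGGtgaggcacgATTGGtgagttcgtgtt
Calr, chr8:84847063-84847105, minus strand: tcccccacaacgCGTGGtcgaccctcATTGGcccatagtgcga
Creld2, chr15:88819508-88819550, plus strand: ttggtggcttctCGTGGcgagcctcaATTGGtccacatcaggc
Canx, chr11:50325788-50325830, minus strand: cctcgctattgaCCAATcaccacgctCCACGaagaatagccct
Dnajc3, chr14:118937815-118937857, plus strand: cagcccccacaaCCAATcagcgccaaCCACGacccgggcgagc
Syvn1, chr19:6046520-6046562, plus strand: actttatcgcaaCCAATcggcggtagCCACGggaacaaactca

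The element lay nearest to the start in Syvn1, 44 to 26 bases before it, and farthest in Hsp90b1, whose distant copy was 212 to 194 bases before it. In Hspa5 it was 65 to 47 bases before the start. A shorter relative, ERSE-II (ATTGG, 1 base of any kind, then CCACG), shares CCACG and the reverse of CCAAT with the ERSE. It was found in 0.0365% of all windows, and here in those of the co-chaperone gene Dnajb11 and of Herpud1, an ER membrane protein that organises degradation. Both stretches are shown because the changes of the pair differed in sign, as given further on.
Dnajb11, chr16:22857840-22857874, plus strand: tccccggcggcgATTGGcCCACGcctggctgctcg
Herpud1, chr8:94386365-94386399, plus strand: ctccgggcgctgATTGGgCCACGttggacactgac

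All 40 genes were well above background on all 6 arrays. In the comparison of TGF-β1-treated with control 2D-MAOs, tested in limma over 14344 genes with Benjamini-Hochberg adjustment, none of the 40 passed an adjusted p of 0.05 in either direction, and none passed it with a 2-fold change. Over all genes tested, 1.63% were called higher, 0.404% lower, and 1.38% were called with a change of 2-fold or more. The adjusted p-values of the 40 ran from 0.103 (Hsp90b1) to 0.906 (Dnajb9). At an unadjusted limma p under 0.05, 13 of the 40 were higher and 3 lower, or 32.5% and 7.5%, against 11.4% and 10.8% of all genes. In these bulk samples, fewer cells of a type and less RNA per cell cannot be told apart.

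The log2 change was above 0 for 33 of the 40 genes and below 0 for 7, with a median of 0.28, against a median of -0.03 over all genes, of which 45.7% lay above 0. With each array scaled to its 75th percentile in place of quantiles, 27 of the 40 lay above 0 and the median was 0.10, against -0.09 over all genes. The 3 TGF-β1 arrays all lay above the 3 control arrays for 9 genes (22.5%; Pdia6, Hspa5, Pdia3, Hsp90b1, Creld2, Calr, Kdelr3, Sec31a and Atf6), as for 12.9% of all genes. They all lay below the controls for 3 genes (7.5%; Ddit3, Herpud1 and Sec24d), as for 13.5% of all genes.

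**Figure D1:**
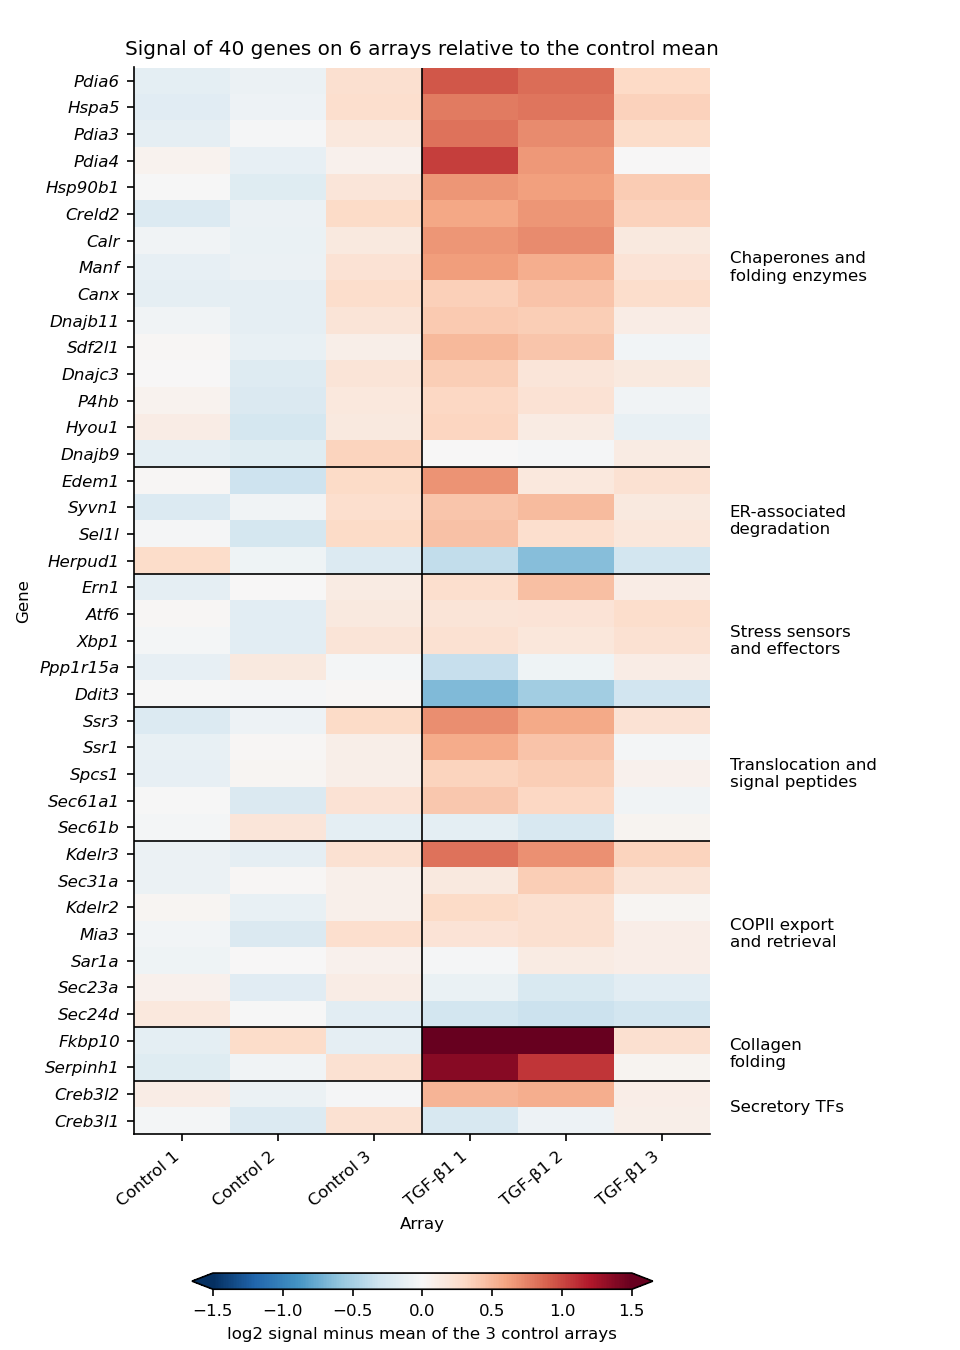
Log2 signal of each of the 40 genes (vertical axis, grouped by role) on each of the 6 arrays (horizontal axis), as colour, relative to the mean of the 3 control arrays. The chaperones were highest on TGF-β1 replicates 1 and 2, where their median lay 0.58 and 0.55 above the control mean, while control replicate 3 and TGF-β1 replicate 3 lay near each other at 0.19 and 0.15.

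The values differed between the slide rows. Within slide row 1, which held 2 arrays of each group, 33 of the 40 genes were above 0 and the median change was 0.47. Within slide row 2, which held 1 array of each group and therefore allowed no test, 25 of the 40 were below 0 and the median was -0.04. For 35 of the 40 genes the change was larger in row 1 than in row 2. Control replicate 3 was the highest control array for 34 of the 40 genes and TGF-β1 replicate 3 the lowest TGF-β1 array for 27, so that the groups came close to each other from both sides.

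Among the arrays of slide row 1 alone, limma called 19 of the 40 genes higher at an adjusted p under 0.05 and 1 lower, Ddit3, while it called 13.8% of all genes higher and 13% lower. Over all arrays but TGF-β1 replicate 3, 13 of the 40 were called higher and Ddit3 again lower, against 9.08% and 6.28% of all genes. These 13 were Hspa5, Hsp90b1, Calr, Pdia3, Pdia4, Pdia6, Sdf2l1, Manf, Ssr1, Kdelr3, Serpinh1, Fkbp10 and Creb3l2. Slide row and replicate number coincide for replicate 3, so an effect of the row and one of the cultures cannot be told apart.

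**Figure D2:**
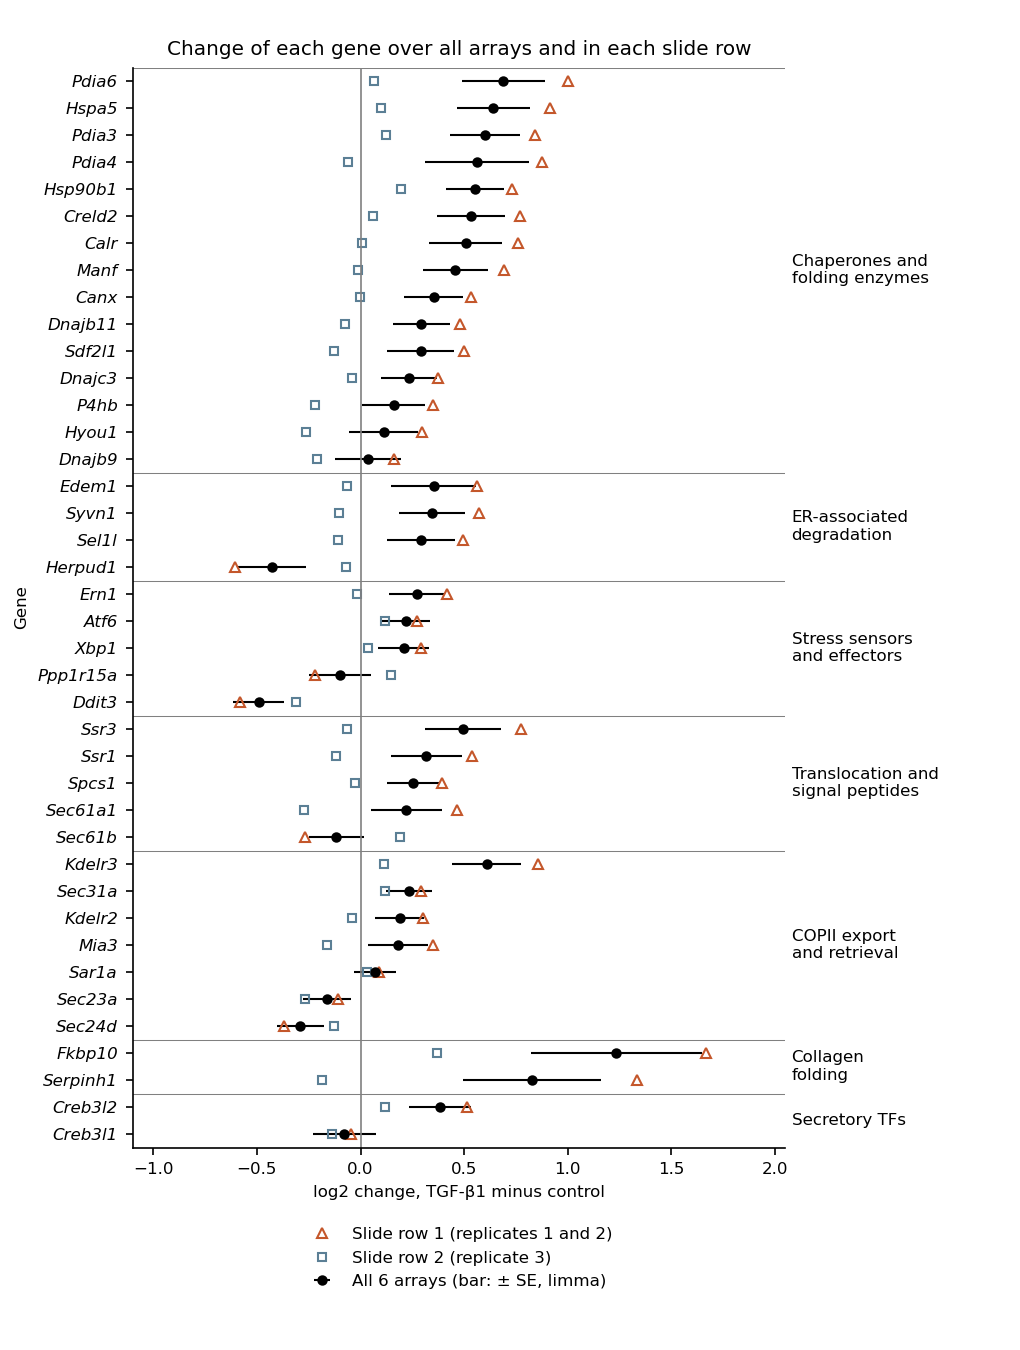
Log2 change (TGF-β1 minus control, horizontal axis) of each of the 40 genes (vertical axis) over all 6 arrays, with its SE from limma as a bar, and in each slide row as open symbols. The row 1 triangles lie mostly to the right of 0 (median 0.47) and the row 2 squares around it (median -0.04).

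The 15 chaperones and folding enzymes had changes from 0.04 to 0.69 on the log2 scale, all above 0, with a median of 0.46, and none passed the adjusted threshold. With scaling to the 75th percentile, 13 of the 15 were above 0 and their median was 0.27. The arrays of the groups lay apart for 6 of the 15, all with TGF-β1 higher, as for 12.9% of all genes. At an unadjusted limma p under 0.05, 8 were higher, against 11.4% of all genes. The median was 0.69 in slide row 1 and -0.01 in slide row 2, where 6 of the 15 were above 0.

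Pdia6, a disulphide isomerase that also acts on the sensor IRE1, had the largest change of the chaperones. Its log2 signal was 15.04, 15.09 and 15.42 on the control arrays and 16.12, 16.02 and 15.49 on the TGF-β1 arrays. The groups did not overlap, but the highest control and the lowest TGF-β1 array, both replicate 3, differed by far less than the group means. The means were 15.19 ± 0.21 and 15.87 ± 0.34 (SD, n = 3 each), a log2 change of 0.69 (SE 0.20, 1.61-fold, limma adjusted p = 0.132).

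In Hspa5, the BiP gene whose promoter is printed above, the log2 signal was 14.90, 14.99 and 15.31 in controls and 15.84, 15.87 and 15.41 with TGF-β1. TGF-β1 replicates 1 and 2 were clearly above all controls and replicate 3 only just above the highest control. The change was 0.64 (SE 0.17, 1.56-fold, limma adjusted p = 0.121), higher than that of 93.8% of all genes tested. It was 0.91 within slide row 1 and 0.10 within row 2, and the 3 probes of the gene gave changes of 0.53 to 0.64. For any single gene with groups that do not overlap, the exact permutation test (two-sided) gives p = 0.1, the smallest that 3 against 3 allows.

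Pdia3 (ERp57), the disulphide isomerase that works with calnexin and calreticulin on glycoproteins, gave 13.83, 13.95 and 14.13 in controls and 14.78, 14.68 and 14.25 with TGF-β1. Its order of arrays was the same as in Hspa5, in that replicate 3 was the highest control and the lowest TGF-β1 array. The change was 0.60 (SE 0.17, 1.52-fold, limma adjusted p = 0.128). Hsp90b1, the ER form of HSP90 known as GRP94, is given because its adjusted p was the lowest of the 40, a choice made after its values were seen. It gave 15.41, 15.24 and 15.60 in controls and 16.07, 16.03 and 15.79 with TGF-β1, and its change of 0.55 (SE 0.14, 1.47-fold, limma adjusted p = 0.103) kept the same sign in row 1 (0.73) and row 2 (0.20).

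Of the lectin chaperones that hold glycoproteins during folding, Calr had a change of 0.51 and Canx of 0.35. Both changes rested on slide row 1 (0.76 and 0.53, against 0.006 and -0.003 in row 2). Pdia4, another disulphide isomerase, had a change of 0.56 that rested on slide row 1 (0.87, against -0.06 in row 2). The secreted ER stress proteins Creld2 and Manf had changes of 0.53 and 0.46. These were 0.77 and 0.69 in row 1 and 0.06 and -0.01 in row 2. Changes were smaller for the BiP co-chaperones Dnajb11 (0.29), Dnajc3 (0.23) and Dnajb9 (0.04), for Sdf2l1 (0.29), which works with them, for Hyou1 (0.11), the nucleotide exchange factor of BiP, and for P4hb (0.16), the isomerase subunit of collagen prolyl hydroxylase. Both P4hb and Hyou1 were above 0 in row 1 (0.35 and 0.30) and below it in row 2 (-0.22 and -0.26). Among these 15 genes Dnajb9 was the only one whose probes well above background differed in sign (0.04 and -0.12).

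The 4 genes of ER-associated degradation did not share a direction, with 3 above 0 and 1 below. Herpud1 gave 14.97, 14.62 and 14.48 in controls and 14.32, 14.05 and 14.41 with TGF-β1. All TGF-β1 arrays lay below all controls, by the least in replicate 3. The change was -0.43 (SE 0.17, limma adjusted p = 0.201), with -0.61 in row 1 and -0.07 in row 2. Edem1, a lectin that hands misfolded glycoproteins to degradation, gave 11.35, 11.02 and 11.62 against 12.01, 11.49 and 11.56, groups that overlapped, with a change of 0.35 (SE 0.20, limma adjusted p = 0.335). Syvn1, the ubiquitin ligase HRD1, gave 14.41, 14.56 and 14.87 against 15.03, 15.09 and 14.76. TGF-β1 replicate 3 lay below control replicate 3 there, and the change was 0.34 (SE 0.16, limma adjusted p = 0.254). Sel1l, the partner of HRD1, had a change of 0.29.

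The 5 stress sensors and effectors had a median change of 0.21, which was -0.02 with scaling to the 75th percentile. Xbp1, whose mRNA is spliced by IRE1 and is itself a target of the unfolded protein response, gave 14.43, 14.29 and 14.64 in controls and 14.68, 14.62 and 14.68 with TGF-β1. The groups overlapped, the change was 0.21 (SE 0.12, limma adjusted p = 0.341), and its 3 probes ranged from -0.06 to 0.21. A probe's signal does not separate spliced from unspliced mRNA here. Ern1, the gene of IRE1, gave 7.93, 8.08 and 8.20 against 8.32, 8.53 and 8.18, with a change of 0.27 (SE 0.13, limma adjusted p = 0.278). Atf6 gave 11.20, 11.02 and 11.33 against 11.38, 11.39 and 11.44. All TGF-β1 arrays of Atf6 lay above all controls, with a change of 0.22 (SE 0.12, limma adjusted p = 0.299) that was above 0 in both rows (0.27 and 0.12).

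Ddit3 encodes CHOP, the transcription factor of the PERK branch that promotes cell death under lasting stress. It gave 9.87, 9.86 and 9.90 in controls and 9.21, 9.35 and 9.58 with TGF-β1. The controls were almost equal and all TGF-β1 arrays lay below them. The change was -0.49 (SE 0.12, 1.41-fold lower, limma adjusted p = 0.105), lower than that of all but 6.73% of genes tested. It was -0.58 within slide row 1 and -0.31 within row 2. Ppp1r15a, which encodes GADD34, the phosphatase subunit that lets translation resume after PERK signalling, had a change of -0.10 (limma adjusted p = 0.714), with -0.22 in row 1 and 0.15 in row 2.

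Of the 5 genes of translocation and signal peptide processing, 4 were above 0, and the median was 0.25 (-0.00489 with scaling to the 75th percentile). Ssr3, a subunit of the TRAP complex beside the Sec61 channel, gave 14.25, 14.38 and 14.74 in controls and 15.16, 15.02 and 14.67 with TGF-β1. Its replicate 3 arrays were in the reverse order of the groups, and the change was 0.50 (SE 0.18, limma adjusted p = 0.188), with 0.78 in row 1 and -0.06 in row 2. The second probe of Ssr3 gave 0.19. Ssr1, another TRAP subunit, gave 13.07, 13.19 and 13.27 against 13.73, 13.60 and 13.15, a change of 0.32 (SE 0.17, limma adjusted p = 0.307). The second probe of Ssr1 gave 0.01. Spcs1, a subunit of the signal peptidase, gave 14.97, 15.12 and 15.18 against 15.43, 15.46 and 15.16, a change of 0.25 (SE 0.13, limma adjusted p = 0.283). Like Ssr3, both had a TGF-β1 replicate 3 below control replicate 3. The channel subunits Sec61a1 and Sec61b had changes of 0.22 and -0.12, and the 3 probes of Sec61a1 ran from -0.03 to 0.22.

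The 7 genes of export and retrieval had a median change of 0.18, which was -0.02 with scaling to the 75th percentile. Kdelr3, one of the KDEL receptors, had the largest change of these genes. It gave 9.08, 9.03 and 9.39 in controls and 9.98, 9.84 and 9.50 with TGF-β1, without overlap, and its change was 0.61 (SE 0.17, 1.53-fold, limma adjusted p = 0.121). Kdelr2, another KDEL receptor, had a change of 0.19. In the COPII coat, Sec24d, a subunit of the inner layer that selects cargo, gave 9.03, 8.87 and 8.72 against 8.60, 8.55 and 8.59. All TGF-β1 arrays of Sec24d lay below all controls, with a change of -0.29 (SE 0.12, limma adjusted p = 0.209). Sec31a, of the outer layer, gave 12.92, 13.03 and 13.08 against 13.16, 13.38 and 13.20, a change of 0.23 (SE 0.11, limma adjusted p = 0.27). Its second probe gave -0.05. The other genes of this group were Sec23a (-0.16), the partner of the SEC24 proteins, Sar1a (0.07), the GTPase that starts the coat, and Mia3 (0.18), which encodes TANGO1, the receptor that loads procollagen. Other probes of Sar1a and Mia3 gave the opposite sign, -0.28 and -0.14.

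Both genes of collagen folding had the 2 largest changes of the 40 genes, and both varied widely among the TGF-β1 arrays. Fkbp10 gave 6.22, 6.65 and 6.24 in controls and 8.24, 7.96 and 6.60 with TGF-β1. Replicates 1 and 2 were far above the controls and replicate 3 lay just below control replicate 2. The change was 1.23 (SE 0.41, 2.35-fold, limma adjusted p = 0.164), with 1.67 in row 1 and 0.37 in row 2. Serpinh1 gave 9.05, 9.17 and 9.46 in controls and 10.59, 10.30 and 9.27 with TGF-β1. Here too TGF-β1 replicate 3 lay within the range of the controls, and the change was 0.83 (SE 0.33, 1.77-fold, limma adjusted p = 0.213), with 1.33 in row 1 and -0.19 in row 2. Without TGF-β1 replicate 3, the change was 1.73 for Fkbp10 (limma adjusted p = 0.006) and 1.22 for Serpinh1 (limma adjusted p = 0.012). In that setting 9.08% of all genes were called higher. Leaving out any other single array called neither gene.

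Creb3l1 and Creb3l2 encode membrane-bound transcription factors of the ER that are cleaved in the Golgi and raise secretory capacity. Creb3l2 gave 9.44, 9.24 and 9.30 in controls and 9.83, 9.87 and 9.42 with TGF-β1. TGF-β1 replicate 3 lay just below control replicate 1, and the change was 0.38 (SE 0.15, limma adjusted p = 0.206). Creb3l1 had spots at only 2.29 to 2.83 times their background. It gave 5.33, 5.15 and 5.57 against 5.10, 5.28 and 5.44, a change of -0.08 (SE 0.15, limma adjusted p = 0.776).

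**Figure D3:**
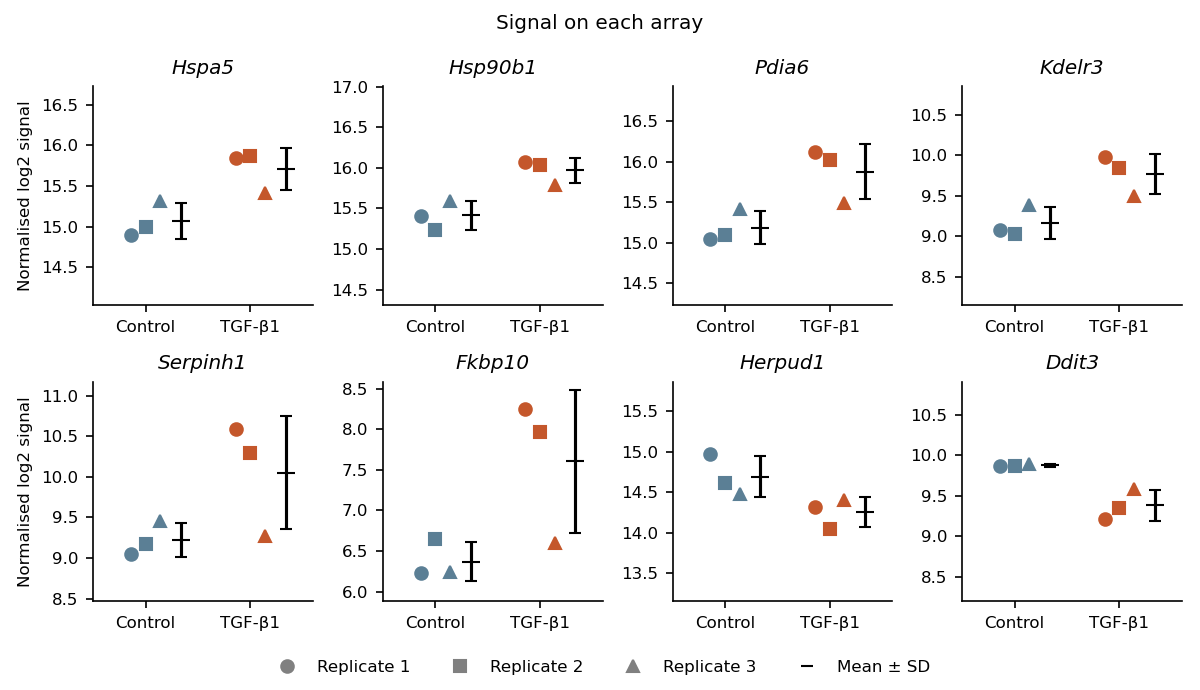
Normalised log2 signal on each array (symbols by replicate number) with mean ± SD of each group (n = 3), for Hspa5, Hsp90b1, Pdia6, Kdelr3, Serpinh1, Fkbp10, Herpud1 and Ddit3, each on an axis of the same length. In Hspa5, Pdia6 and Kdelr3 the groups do not overlap although replicate 3 of each group lies close to the other group, in Serpinh1 and Fkbp10 TGF-β1 replicate 3 lies within the range of the controls, and in Ddit3 all TGF-β1 arrays lie below the 3 nearly equal controls.

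Set side by side, the chaperones had a median change of 0.46, the sensors of 0.21 and the export genes of 0.18. With scaling to the 75th percentile these were 0.27, -0.02 and -0.02. On the TGF-β1 arrays the chaperone medians lay 0.58, 0.55 and 0.15 above the control mean, the sensor medians 0.20, 0.17 and 0.12, and the export medians 0.14, 0.24 and 0.09. On TGF-β1 replicate 3 the medians of the 3 sets of genes thus lay close together. These values are descriptions of lists chosen by name, and the difference between the lists was not tested.

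**Figure D4:**
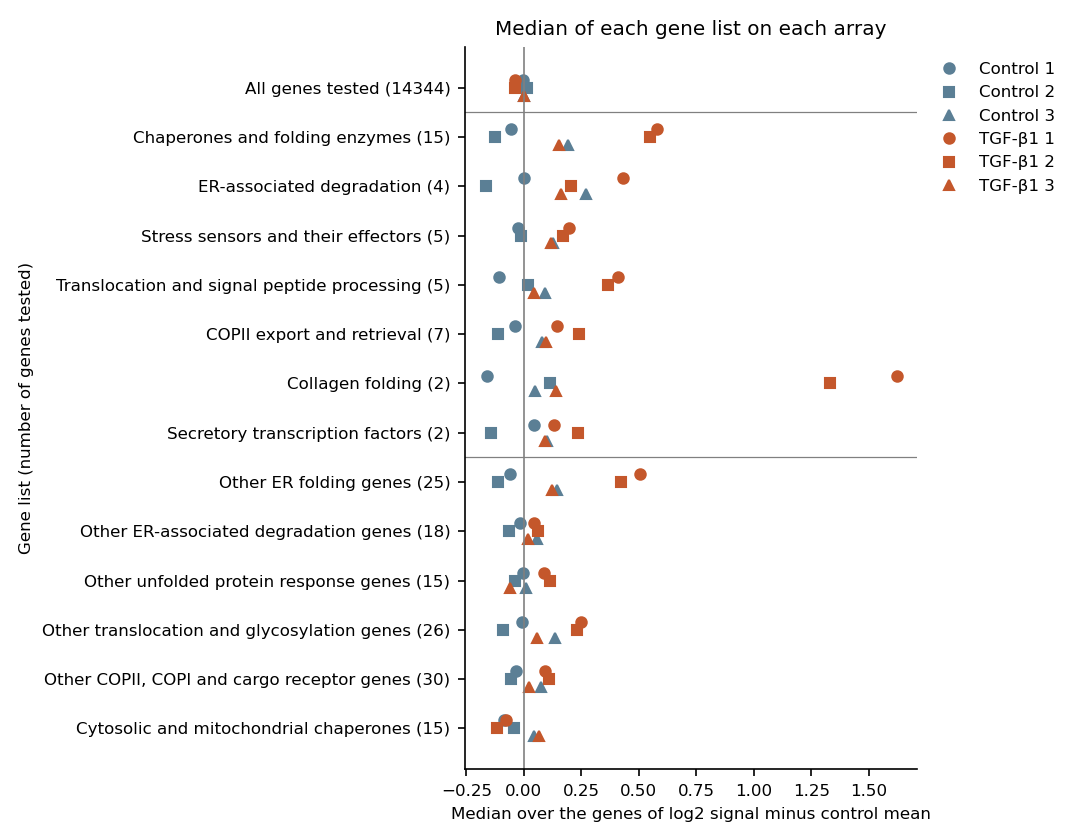
Median over the genes of a list of the log2 signal minus the control mean (horizontal axis), for each gene list (vertical axis, with the number of genes tested) and each of the 6 arrays. The ER chaperone medians are at 0.58 and 0.55 on TGF-β1 replicates 1 and 2 and at 0.15 on replicate 3, and the collagen folding medians at 1.62, 1.33 and 0.14.

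The rest of the pathway was read from further lists. Of 26 other ER folding genes, 25 were tested. All 25 changes were above 0, with a median of 0.36, and none passed the adjusted threshold. At an unadjusted limma p under 0.05, 12 were higher, against 11.4% of all genes. Fkbp7, an ER prolyl isomerase, and Pdia5, a disulphide isomerase, had the largest changes, 0.86 each (limma adjusted p = 0.128 and 0.0897). As in the 15 chaperones, the median was higher in slide row 1 (0.50) than in row 2 (-0.04). The 15 cytosolic and mitochondrial chaperones, taken as a comparison from outside the ER, had 6 changes above 0 and 9 below, with a median of -0.03 and none called.

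Of 18 other ER-associated degradation genes, 9 were above 0 and 9 below, with a median of -0.00, and 1 was called, Derl3. Derl3 encodes a derlin, a membrane protein of the channel through which misfolded proteins leave the ER. It gave 4.93, 5.40 and 4.05 in controls and 7.31, 7.31 and 6.62 with TGF-β1, so that the lowest TGF-β1 array was well above the highest control. Derl3 rose by 2.29 on the log2 scale (SE 0.36, 4.87-fold, limma adjusted p = 0.0332), with 2.14 in row 1 and 2.57 in row 2. Its call was lost when control replicate 1 or 2 or TGF-β1 replicate 1 or 2 was left out (limma adjusted p = 0.0503 to 0.149), and its change was 1.06 with the normexp background. Other degradation genes at the ends of the list were Os9 (0.31), a lectin, Ube2g2 (-0.39), a ubiquitin-conjugating enzyme, and Svip (-0.37), an inhibitor of degradation.

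Of 15 other genes of the unfolded protein response, 7 were above 0 and 8 below, with a median of -0.01 and none called. Mbtps1, the site-1 protease that cleaves ATF6, had a change of 0.57, and Eif2ak3, the gene of PERK, of 0.39. Ern2, the form of IRE1 found in mucous epithelia, had a change of -0.65, but its spot cleared the background on each of the 3 controls and, with TGF-β1, on 1 array of 3, so that it was tested because of the group where it was higher. Crebrf, a regulator of CREB3 proteins, had a change of -0.58.

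Of 26 other translocation and glycosylation genes, 19 were above 0 and 7 below, with a median of 0.16, and Tram2 was called. Tram2 encodes a membrane protein next to the translocon that is known to take part in collagen synthesis. It gave 8.48, 8.29 and 8.67 in controls and 9.29, 9.22 and 9.32 with TGF-β1, and the 3 TGF-β1 arrays were nearly equal. Tram2 rose by 0.79 (SE 0.13, 1.73-fold, limma adjusted p = 0.0337), with 0.87 in row 1 and 0.65 in row 2. Without control replicate 1 or 2 or TGF-β1 replicate 1 or 2, its limma adjusted p was 0.111 to 0.157. The signal peptidase subunit Spcs3 had a larger change of 0.87 that did not pass (limma adjusted p = 0.161), and Srp9 and Srp14, subunits of the signal recognition particle, were lowest at -0.34 and -0.16.

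Of 31 other genes of COPII, COPI and cargo receptors, 30 were tested, with 20 above 0, 10 below, a median of 0.07 and none called. The cargo receptor genes Lman1 (0.51, limma adjusted p = 0.118) and Surf4 (0.46) were highest, and the coat subunit Sec13 (-0.24) and the GTPase Arf4 (-0.18) lowest. Of 4 other secretory transcription factors 3 were tested, with Creb3l4 at 0.51 and none called.

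The changes were also set against the promoter windows. All 8 genes with an ERSE were above 0, with a median change of 0.52 and a range of 0.23 to 0.69. The other 25 of the 40 genes that had a window held 19 above 0 and 6 below, with a median of 0.25. Because 7 of the 8 are chaperones, the chaperones were also taken alone. The 6 chaperones with a window but no ERSE in it, Pdia3, Pdia4, P4hb, Dnajb9, Dnajb11 and Sdf2l1, had a median of 0.29 and a range of 0.04 to 0.60, which overlaps that of the 7 with one (median 0.53). Beyond the 40 genes, 29 others had an ERSE in a window, of which 13 were tested. Their median was 0.25, with 9 above 0 and 4 below, and they ranged from -0.999 (Acacb, acetyl-CoA carboxylase of fatty acid metabolism) to 2.29 (Derl3). The median over all 11417 tested genes with a window was -0.03. Alg12, a mannosyltransferase of glycosylation, shares its ERSE with Creld2, whose start lies close by on the opposite strand.

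**Figure D5:**
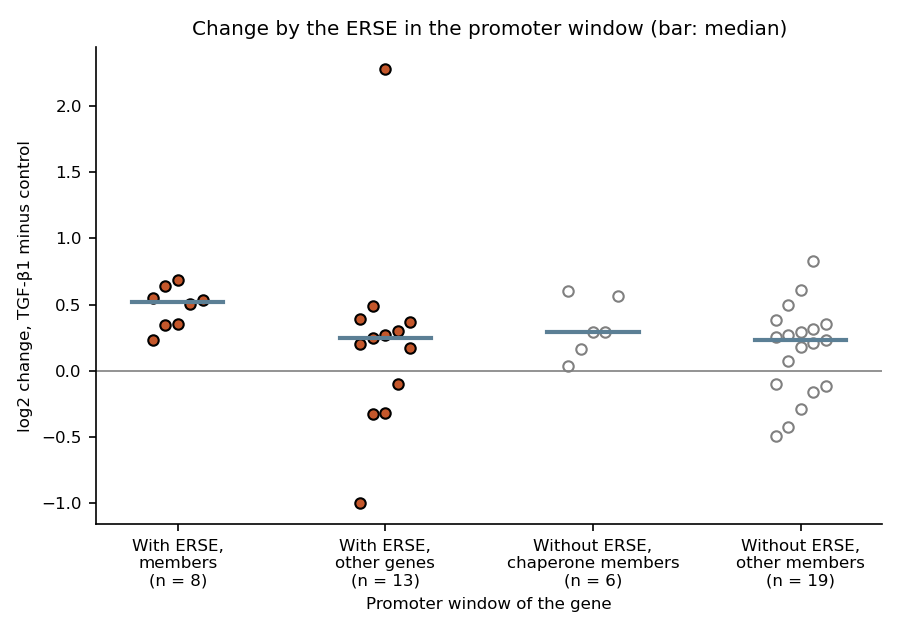
Log2 change (TGF-β1 minus control, vertical axis) of each tested gene as a point, by the content of its promoter window (horizontal axis, with the number of genes), with the median of each set as a line. The 8 genes with an ERSE lie between 0.23 and 0.69, and the 6 chaperones without it between 0.04 and 0.60.

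The pair with an ERSE-II differed in sign, with Dnajb11 at 0.29 and Herpud1 at -0.43. The element UPRE (TGACGTGG), bound by ATF6 and XBP1, shares CCACG with the ERSE on its reverse strand and was found in 0.676% of all windows. It was in those of Kdelr3 (0.61), Sec24d (-0.29) and Sec23a (-0.16). The element of the PERK branch, CARE (TGATGNAAT), was found in 0.965% of windows and in none of the 33. The SMAD box CAGACA was found in 21.0% of all windows and in those of Creb3l2, Dnajb11 and Serpinh1. A match of letters describes the window and does not show a site in use.

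Several other measures differed between the arrays of a group. The summed signal of 4 basal cell markers was 26429 to 44546 in controls, highest in replicate 3, and 131330, 110055 and 53775 on TGF-β1 replicates 1, 2 and 3. The summed signal of the 8 fibroblast markers was 576 to 648 in controls and 2709, 1210 and 708 on the TGF-β1 arrays. Col1a1 and Col1a2 cleared the background on each TGF-β1 array and in no control, so they were tested only because of the group where they were higher. For 11 hypoxia genes the sum was 275123, 243197 and 312410 in controls and 209834, 192617 and 294221 with TGF-β1. This sum was highest on replicate 3 in both groups. The chaperone median was highest on replicate 3 among the controls and lowest on replicate 3 among the TGF-β1 arrays. The share of probes well above background was 58.2% on control replicate 3 and 55.6% on TGF-β1 replicate 3, against 55.5% and 55.0% on the other controls and 58.2% and 59.0% on the other TGF-β1 arrays. The part of these measures in the changes of the ER genes was not tested.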

How the data were processed

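Total RNA of 3 control and 3 TGF-β1-treated 2D-MAO cultures was labelled with Cy3 and hybridised to Agilent SurePrint G3 mouse arrays, 1 per culture. The files deposited by the authors hold spot intensity on a linear scale, background-subtracted by Agilent Feature Extraction (11.0.1.1 in the submitters' processing notes), without normalisation between arrays. The study then normalised log2 signals by quantiles, as was done here. Groups came from the sample titles. Control spots and outlier spots (74 to 112 per array) were left out.

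Of 35883 probes that carry a RefSeq accession, 32991 were named through a table for GRCm38.p6. The design was annotated on an older assembly, so no probe positions are given. For each gene the brightest probe was used, and it had to be well above background on at least 3 of 6 arrays, which left 14344 of 22910 genes. The 40 genes had 65 probes. Of the 18 with several probes well above background, 12 had probes of the same sign. The groups were compared in limma (version 3.58.1, under R 4.3.3) with treatment as the sole term, and a gene was called at a Benjamini-Hochberg adjusted p under 0.05. The procedure was tested on simulated data. The number of arrays limits the precision.

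Values on every array are given for Hspa5, Xbp1, Ddit3 and Serpinh1 and for up to 3 genes of each role with the largest changes, and of each further list up to 2 genes in each direction. The genes, lists and motifs were chosen with earlier results of these data known, so no list was tested. The comparison was repeated after scaling each array to its 75th percentile, with background correction by normexp (offset 50, on the median spot and background signals), with no filter or one on all 6 arrays, with a gene's probes averaged, and with a trended and robust prior, array weights, by the unpaired test of the study's methods with and without adjustment (called the methods' t-test), with the replicate number or the slide row as a block, within slide row 1, and without each array in turn. Promoter sequences are from RefSeq (GRCm38.p6). No window was at hand for Hyou1, Manf, Atf6, Sec61a1, Kdelr2, Fkbp10 and Creb3l1.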

Additional observations from a re-analysis of the deposited data

How the results depend on the processing

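The count of 0 ER genes called held with scaling to the 75th percentile, normexp, both other filters, the mean of probes, the methods' t-test after adjustment, the slide row as a block, and without any of the arrays other than TGF-β1 replicate 3. The trended and robust prior called 1 higher (Hsp90b1), against 2.78% of all genes. Array weights called 21 higher and 3 lower, 2 of them with a 2-fold change, while calling 16.8% of all genes higher and 18.0% lower. Within slide row 1, 19 were called higher, 1 lower and 3 with a 2-fold change. At an unadjusted p, limma gave 13 higher and 3 lower (1 with a 2-fold change), and the methods' t-test 7 higher and 2 lower, where it gave 9.10% of all genes higher and 8.0% lower. Leaving out single arrays gave 0 to 13 higher, 0 to 1 lower and 0 to 2 with a 2-fold change, the upper values all without TGF-β1 replicate 3. Single genes changed sign without a call in 17 of 760 values, in 10 genes whose own change was at most 0.25 in size, and no called value changed sign.

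The median changes moved by more than the spread between replicates in the settings named next. With scaling to the 75th percentile they were 0.10 for all 40 genes, 0.076 for degradation, -0.023 for sensors, -0.00489 for translocation and -0.018 for export. Within slide row 1 they were 0.47 for all 40, 0.69 for chaperones, 0.53 for degradation, 0.47 for translocation and 0.29 for export. With the mean of a gene's probes they were 0.048 for sensors and 0.044 for export. Leaving out single arrays moved the median by more than that spread only for sensors (without control replicate 2 or 3) and export (without control replicate 2). It gave 0.22 to 0.36 for all 40, 0.35 to 0.59 for chaperones, 0.18 to 0.45 for degradation, 0.13 to 0.29 for sensors, 0.20 to 0.36 for translocation, 0.073 to 0.23 for export, 0.74 to 1.48 for collagen folding and 0.08 to 0.20 for the transcription factors. The cause of these shifts was not tested.

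With the replicate number as a block, 0 of the 40 genes were called and the medians did not move, while 86 genes were called higher and 18 lower over the whole array, against 234 and 58 without it, and Tram2 lost its call (adjusted p = 0.0739). Deviations from the group means correlated between arrays of the same number at -0.01, 0.33 and -0.05 for replicates 1, 2 and 3, and control replicate 1 correlated best with TGF-β1 replicate 3, so the numbers were not taken to pair the cultures. Derl3 and Tram2 also lost their calls with no filter on dim probes (adjusted p = 0.125 and 0.0794) and in the methods' t-test after adjustment (0.211 and 0.154). With 3 arrays a group, a change that misses the threshold may still be present, and the spots of Derl3 were 1.72 to 8 times as bright as their background.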
